A study of Danio rerio with 30 samples.

Results

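The skull injury contrast between 2 and 3 days post injury (dpi) was taken from microarrays of the whole telencephalon of adult wild-type zebrafish, 3-5 months old per the labels (the methods of the study give a slightly older range) and of the AB/EK strain per those methods. A micro-knife had been pushed vertically through the skull into the medial telencephalon of both hemispheres under MS222 anaesthesia. Of 30 arrays in all, the 7 taken here were the 3 arrays of skull 2 dpi and the 4 arrays of skull 3 dpi, chosen by their labels alone. Beside them, the 3 arrays each of nostril 2 dpi and nostril 3 dpi, from fish injured through the nostrils, served for a test of the difference between injuries, and intact fish were used as a description. The 25 injury arrays of all 8 injury groups, skull 1 and 7 dpi among them, shared 1 model, so that the groups outside the contrast entered it through the estimate of the spread. Each array held the RNA of 1 sample on the Affymetrix Zebrafish Gene 1.0 ST design, and no source used here says whether a sample was 1 fish or a pool, so that p-values measure the spread between these samples, which may be technical. Intact arrays entered no fit but 1 of the alternatives.

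Days 2 and 3 after a stab wound lie in the phase in which microglia and leukocytes fill the lesion, ependymoglia (the radial glia of the fish brain) react and oligodendrocyte progenitors begin to gather at the wound. Interferons are cytokines that act through JAK-STAT receptors and switch on antiviral genes such as the mx GTPases, rsad2 and the ifit genes, together with the machinery that loads peptides on class I molecules. The transcription factor irf7 raises interferon output further, and socs1 proteins restrain the receptor. Neural genes were well measured: the neuron list of 35 genes averaged 8.70 to 8.96 on the log2 scale over the 7 arrays, and tbr1b, a transcription factor of the pallium, measured 9.33 to 9.99. The neuron list does not tell the telencephalon from other brain regions. In replicate 3 of skull 2 dpi the pineal and photoreceptor list averaged 7.15, against 4.185 to 4.467 in the other arrays of the contrast.

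The skull 3 dpi arrays were less alike than those of any other group. Their pairwise correlations ran from 0.963 to 0.974, against 0.979 to 0.988 within the other 8 groups, and their mean variance per probe set was 0.145 against 0.0679 to 0.0862. Their values were also compressed: the upper quartile lay at 6.44 to 6.51 and the lower quartile at 3.297 to 3.378 in skull 3 dpi, where skull 2 dpi had 6.55 to 6.57 and 3.228 to 3.255. The test therefore gave each group its own weight, 0.527 for skull 3 dpi and 1.03 to 1.34 for the other injury groups. In whole tissue, a change in the number of cells of a type and a change of RNA per cell cannot be told apart. The part of the compressed range in the results below was not tested beyond the alternative normalizations given with them.

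Between 2 and 3 dpi, 776 of 38397 probe sets with a signal above the floor (a linear mean above 20 in either group) passed an adjusted p of 0.05, a share of 2.02%. Of these, 160 were higher at 3 dpi (0.417%) and 616 lower (1.6%). By the criteria of the study, which ask for an unadjusted p under 0.05 and a fold change above 1.6, 1500 passed (3.91%), of which 509 were higher (1.33%) and 991 lower (2.58%). The values of the groups did not overlap for 1631 probe sets on the higher side (4.25%) and 3838 on the lower side (10%). The balance between directions depended on scaling: after a further quantile normalization 219 were higher and 308 lower, and after cyclic loess 256 and 251.

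**Figure D1:**
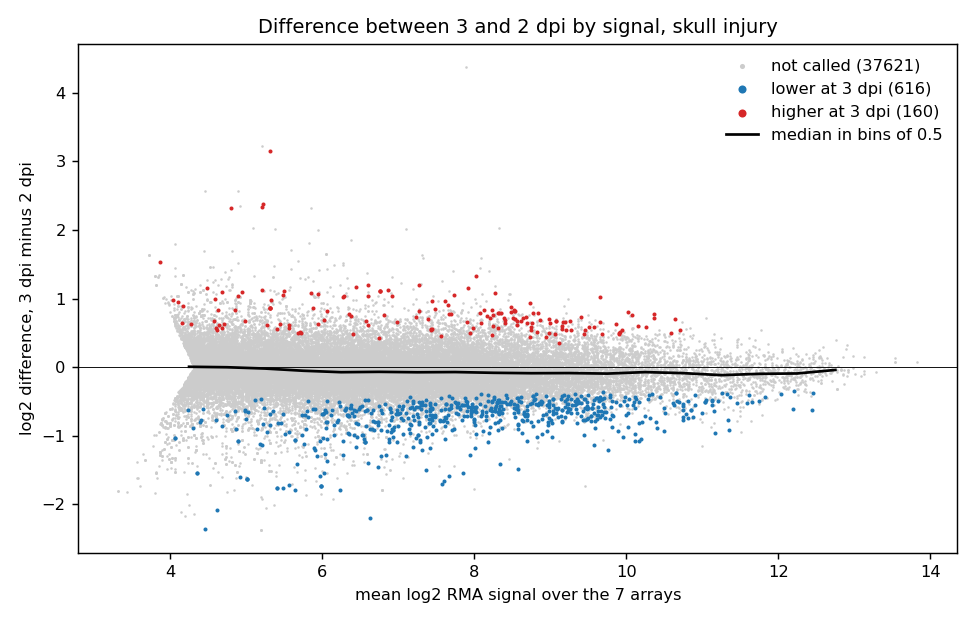
Log2 difference between skull 3 dpi and skull 2 dpi (vertical axis) against the mean log2 RMA signal over the 7 arrays (horizontal axis), 1 point per probe set tested; red points are the 160 called higher, blue points the 616 called lower, and the line is the median in bins of 0.5. The median lies near 0 at low signal and drops to between -0.07 and -0.09 above a signal of 6.

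The calls rested on single libraries to a large degree. Without skull 3 dpi replicate 1 only 16 probe sets were called, without replicate 3 there were 92, without replicate 4 there were 243, and without replicate 2 there were 2601. Without skull 2 dpi replicate 1, 2 or 3 the counts were 173, 56 and 547. A fit on the 7 arrays alone called 0, with 4997 at an unadjusted p under 0.05 (13%). All 160 higher and 612 of the 616 lower probe sets had an unadjusted p under 0.05 there. That fit takes the same differences from the same 7 arrays, so that these counts give no support of their own. Of the calls, 23 higher and 258 lower probe sets carried a single gene symbol, and the others could not be named.

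Interferon-stimulated genes made up the highest list at 3 dpi. Of 40 matched genes of the interferon response list, whatever their signal, 38 had a positive difference and the median was 0.42 on the log2 scale, where 8482 of all 19260 named genes were positive with a median of -0.03. Of the 40, 25 passed the signal floor and were tested, 18 in both groups and 7 at 3 dpi only. Those 7, mxc, mxe and rsad2 among them, were admitted by the group in which they were high, so that counts over the 25 describe the tested genes and give no support of their own. Among the 25, 24 were positive with a median of 0.62, against -0.09 over 13951 named genes tested. By adjusted p, 2 members rose and 0 fell, where 23 of all named genes rose (0.165%) and 232 fell (1.66%). At an unadjusted p under 0.05, 14 members were higher and 0 lower, beside 3.36% and 15.4% of all named genes and 6.2% and 13.1% of all probe sets. The exception to the positive sign among the tested genes was irf1a at -0.31, named after its value was seen.

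The gene ifi44a8, of a family of interferon-induced 44 genes and not on that list, had the smallest adjusted p of all named genes. Its log2 signal was 3.06, 2.90 and 3.01 in the skull 2 dpi arrays and 4.85, 5.30, 3.83 and 4.12 in the skull 3 dpi arrays. All 4 later values lay above the earlier ones, and the log2 difference was 1.53 ± 0.21 (SE, adjusted p = 0.0079). The gene passed the signal floor at 3 dpi only, so that no exact fold is given, and the 3 dpi mean was 1.15 times the floor. Intact fish had 2.95 to 3.43 and skull 7 dpi 3.05 to 3.28, close to the lower quartile of the arrays.

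The feedback inhibitor socs1a measured 4.70, 4.35 and 4.65 at 2 dpi and 5.48, 6.80, 4.82 and 5.66 at 3 dpi. The groups were apart, with replicate 2 highest and replicate 3 just above the 2 dpi values, and the gene rose 2.17-fold (log2 difference 1.12 ± 0.27 SE, adjusted p = 0.038). For ifit12, an interferon-induced protein with tetratricopeptide repeats, the values were 4.77, 4.60 and 5.29, then 6.07, 6.60, 5.09 and 6.01. It rose 2.07-fold (1.05 ± 0.26 SE, adjusted p = 0.040), with replicate 3 inside the 2 dpi range.

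Other members had larger differences that missed the threshold. The antiviral GTPase mxc had 4.39, 4.25 and 4.03 at 2 dpi and 5.78, 9.03, 4.93 and 5.23 at 3 dpi. Its groups did not overlap, and replicate 2 stood far above the rest, giving 2.02 ± 0.64 (SE) on the log2 scale with an adjusted p of 0.088. The transcription factor irf7 had 5.28, 5.16 and 5.81, then 8.17, 7.12, 4.98 and 7.46, a difference of 1.51 ± 0.46 (SE, adjusted p = 0.079). The antiviral enzyme rsad2 (viperin) had 3.37, 3.74 and 4.05, then 6.52, 4.67, 3.50 and 6.04, a difference of 1.46 ± 0.42 (SE, adjusted p = 0.070). In both, replicate 3 lay within or below the 2 dpi range while the other 3 arrays were above it. The related gene mxe differed by 0.42 ± 0.31 (SE, adjusted p = 0.49). Members of the mx, ifit and ifi44 families are close in sequence, and cross-hybridization between them was not tested.

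**Figure D2:**
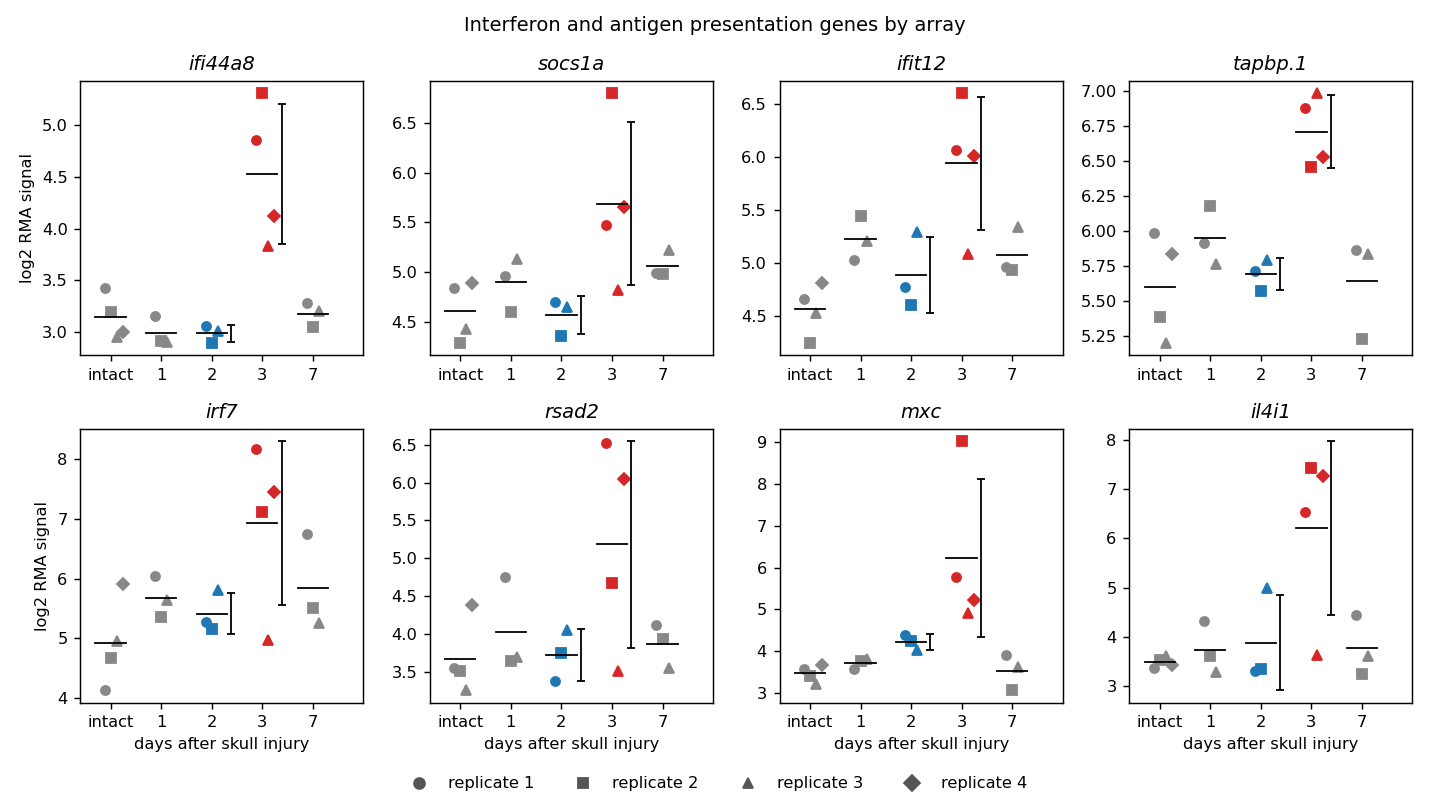
Log2 RMA signal (vertical axis) of 8 genes in intact fish and at 1, 2, 3 and 7 days after skull injury, 1 point per sample, with the marker giving the replicate number; horizontal lines are group means and the bars beside 2 and 3 dpi are 1 SD. In ifit12, irf7, rsad2 and il4i1 replicate 3 of 3 dpi sits with the 2 dpi samples, and in ifi44a8, socs1a, tapbp.1 and mxc all 4 samples of 3 dpi lie above them.

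The same array had the lowest mean level of the list at 3 dpi. The mean level of the interferon list was 5.22, 5.09 and 5.70 in the 2 dpi arrays and 6.38, 6.42, 5.00 and 6.37 in the 3 dpi arrays. Replicates 1, 2 and 4 of 3 dpi lay together above every other sample, while replicate 3 lay inside the intact range of 4.79 to 5.39. This level was taken over the 25 tested genes, 7 of which passed the signal floor at 3 dpi only. The filter thus favoured skull 3 dpi, and the level gives no support of its own. No level was taken over all 40 matched genes. Counted by gene, 18, 19 and 21 of the 25 members exceeded all 3 values of 2 dpi in replicates 1, 2 and 4, and 3 did so in replicate 3, where 12 were below all of them. Of all 13951 named genes, 2809, 4146 and 3618 were above in replicates 1, 2 and 4 and 3063 in replicate 3. In replicate 3, 6983 of all named genes (50.1%) were below all 2 dpi values, near the 48% of the list. Without replicate 3 of 3 dpi the list had 5 members called and a median of 0.93 over 28 tested. Without replicate 3 of 2 dpi 3 were called, with a median of 0.93, and without replicate 2 of 3 dpi 1 was called, with a median of 0.51. Without replicate 1 or 4 of 3 dpi, or without replicate 1 or 2 of 2 dpi, 0 were called, and the median stayed between 0.39 and 0.56.

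Among further immune lists the calls were few. In class I antigen presentation 1 of 20 members rose, beside 0.165% of all named genes, and 3 were higher and 2 lower at an unadjusted p under 0.05, beside 3.36% and 15.4%. The member that rose was tapbp.1, encoding tapasin, which holds class I molecules at the peptide transporter. It had 5.71, 5.57 and 5.79 at 2 dpi and 6.88, 6.46, 6.98 and 6.53 at 3 dpi, 2.03-fold higher (1.02 ± 0.22 SE, adjusted p = 0.025), and here replicate 3 was the highest array. The proteasome subunit psmb13a read 6.92, 5.54 and 6.54, then 7.36, 8.62, 7.36 and 6.91 (1.23 ± 0.39 SE, adjusted p = 0.093), with replicate 4 inside the earlier range. Of 8 class II genes none was called, with 0 at adjusted p and 2 higher and 0 lower at an unadjusted p under 0.05. The invariant chain gene cd74a had 10.33, 10.43 and 10.78, then 11.09, 11.41, 10.93 and 10.91 (0.57 ± 0.17 SE, adjusted p = 0.079), groups that did not overlap. For the activation marker cd83 the difference was 0.94 ± 0.33 (SE, adjusted p = 0.12), set mainly by replicate 2 at 6.05. This gene passed the signal floor at 3 dpi only, with a 3 dpi mean of 1.01 times the floor.

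The enzyme il4i1, an amino acid oxidase made by antigen-presenting cells in mammals, was singled out after its values were seen, as the called named gene with the largest positive difference. It had 3.29, 3.35 and 4.99 at 2 dpi and 6.54, 7.43, 3.62 and 7.27 at 3 dpi. As for the interferon list, replicates 1, 2 and 4 were high and replicate 3 was not, and the log2 difference was 2.34 ± 0.60 (SE, adjusted p = 0.048). It too passed the signal floor at 3 dpi only, where its mean was 3.71 times the floor. Intact fish had 3.36 to 3.61.

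Of 14 chemokine ligands, 8 chemokine receptors and 11 Toll-like receptors and adaptors none was called. Nor was any of 20 cytokines and inhibitors or 20 JAK-STAT and injury response genes. In that order, 0 in each list passed at adjusted p, and 2, 1, 0, 1 and 1 at an unadjusted p under 0.05. The 2 chemokine ligands were higher, and those of the receptor, cytokine and JAK-STAT lists were lower. Of the 14 ligands, 2 passed the signal floor at 3 dpi only. Of all named genes 3.36% were higher and 15.4% lower at that unadjusted p, and 0.165% rose and 1.66% fell by adjusted p. The chemokine cxcl20 had 5.36, 5.37 and 4.73, then 6.81, 9.17, 4.99 and 5.32 (1.41 ± 0.59 SE, adjusted p = 0.19), so that replicates 1 and 2 were high and replicates 3 and 4 were not. The lymphoid chemokine ccl19a.2 differed by 0.53 ± 0.16 (SE, adjusted p = 0.078). It passed the signal floor at 3 dpi only, with a 3 dpi mean of 1.02 times the floor. The receptor genes cxcr3.2 and cxcr3.3 differed by 0.02 ± 0.24 and -0.20 ± 0.26 (SE, adjusted p = 0.97 and 0.72). For cxcr3.2 the sign turned to -0.00562 once each array was centred on its median.

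Lists of blood-borne and immune cell types had no calls, where 0.165% of all named genes rose and 1.66% fell. At such shares, 0 calls in lists this small do not show that these cells were unchanged. For microglia and macrophages 0 of 28 genes were called and the median difference was 0.07. Their mean level was 6.80, 6.62 and 6.85 at 2 dpi and 6.85, 7.47, 6.53 and 6.64 at 3 dpi, above the intact range of 5.59 to 5.95 in all 7 arrays. Replicate 2 of 3 dpi held the highest microglia level and replicate 3 the lowest, and 24 of 28 members were above all 2 dpi values in replicate 2 against 4 in replicate 3. Of all named genes 29.7% were above in replicate 2 and 22% in replicate 3. In replicate 3, 14 of the 28 were below all 2 dpi values, beside 50.1% of all named genes. The low interferon level of replicate 3 went with the lowest microglia level at 3 dpi, while replicate 4, with 6.64, had a high interferon level. In neutrophils 0 of 9 were called. The lysozyme gene lyz had 5.62, 6.11 and 6.79, then 8.07, 7.43, 7.09 and 7.36 (1.32 ± 0.62 SE, adjusted p = 0.25). The myeloperoxidase gene mpx differed by 0.29 ± 0.25 (SE, adjusted p = 0.56) and passed the signal floor at 3 dpi only, with a mean of 1.13 times the floor. The T and NK cell list had 0 of 8 called. The part of these cells in the interferon result was not tested.

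**Figure D3:**
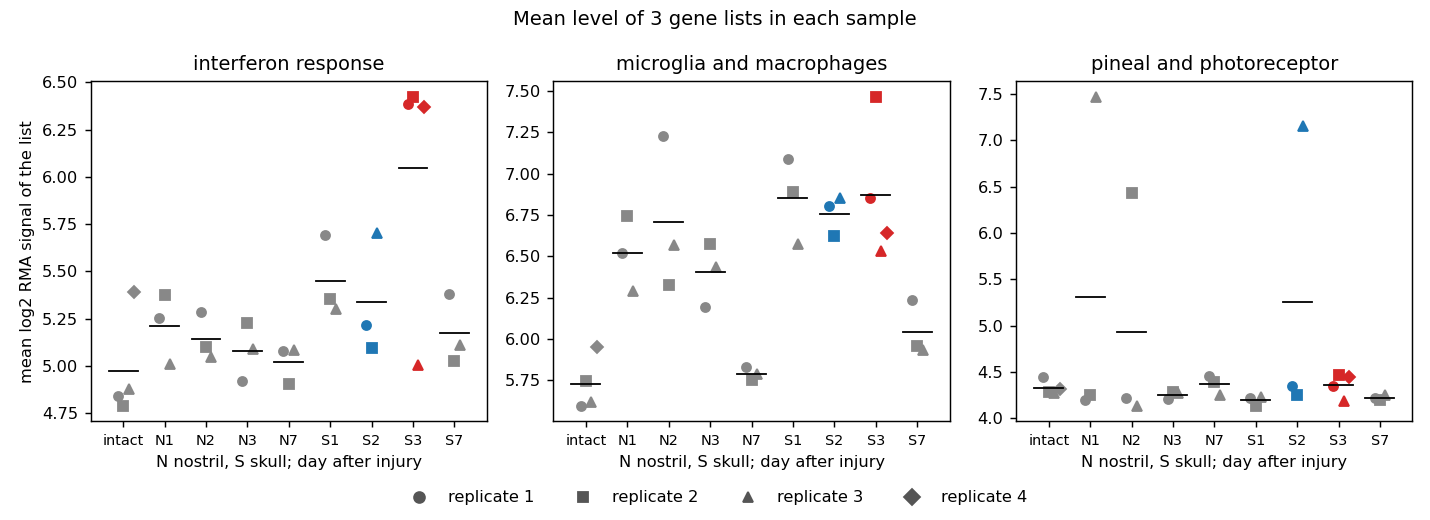
Mean log2 RMA signal of the tested members of 3 gene lists (vertical axes) in each sample, by injury (N nostril, S skull) and day after injury; blue is skull 2 dpi, red skull 3 dpi, marker shapes give the replicate and lines the group means. The interferon level is 6.37 to 6.42 in 3 of the 4 skull 3 dpi samples and 5.00 in replicate 3. Of its 25 genes, 7 were admitted by their signal at skull 3 dpi only. Pineal and photoreceptor genes are high in replicate 3 of skull 2 dpi, replicate 3 of nostril 1 dpi and replicate 2 of nostril 2 dpi.

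Beyond immune genes, the named genes that rose with groups apart were varied in function. The deubiquitinase gene otud4 had 6.47, 5.88 and 6.34 at 2 dpi and 7.67, 6.63, 7.56 and 7.55 at 3 dpi, 2.18-fold higher (1.12 ± 0.21 SE, adjusted p = 0.016). Replicate 2 was the lowest of the later arrays, the reverse of mxc. Replicate 2 was also the lowest, and replicate 3 the highest, for wdr46, a nucleolar protein of ribosome assembly, with 6.82, 7.08 and 7.30, then 8.11, 7.64, 8.59 and 7.77 (0.96 ± 0.25 SE, adjusted p = 0.048). The same order held for vbp1, a subunit of the prefoldin chaperone, with 7.53, 7.77 and 7.88, then 8.57, 7.91, 8.68 and 8.30 (0.64 ± 0.15 SE, adjusted p = 0.037). The remaining genes under the rule were LOC100534715 (2.16-fold), zgc:123258 (1.67-fold), the proteasome assembly factor psmg2 (1.59-fold), the formin fmnl3, which elongates actin filaments (under the floor at 2 dpi, with a 3 dpi mean of 1.46 times the floor), the axonemal dynein light chain dnal1 (1.54-fold) and the adhesion molecule mcama of endothelial cells (1.53-fold), with adjusted p from 0.020 to 0.045.

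On the deposited scale more genes were called lower at 3 dpi than higher, a balance that depended on scaling as given above. The calcineurin regulatory subunit ppp3r1b, part of a calcium-dependent phosphatase of neurons, had 9.91, 10.07 and 10.04 at 2 dpi and 8.70, 9.52, 8.69 and 9.16 at 3 dpi. Every later value was lower and the gene fell 1.99-fold (-0.99 ± 0.15 SE, adjusted p = 0.0088). The calcineurin genes ppp3r1a and ppp3cb, named after their values were seen, also fell: ppp3r1a by 0.52 ± 0.11 (SE, adjusted p = 0.020) and ppp3cb by 0.54 ± 0.14 (SE, adjusted p = 0.045) on the log2 scale.

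The transcription factor nrf1, an activator of nuclear genes for mitochondrial proteins, had 6.25, 6.38 and 6.28, then 5.46, 5.21, 5.42 and 5.52. Its 4 later values were close together and apart from the earlier ones, a 1.86-fold fall (-0.90 ± 0.15 SE, adjusted p = 0.0099). It was called in 17 of 20 alternative settings, and ppp3r1b and vegfab in 16 each. Those were the highest counts among the named genes, and ifi44a8 was called in 15 of the 18 settings in which it was tested. In the same 20 settings wdr46 and ifit12 were called in 10 each, socs1a in 9, il4i1 in 8 and mmd in 6. The angiogenic ligand gene vegfab had 6.82, 6.98 and 6.38, then 5.46, 5.99, 5.76 and 5.74, and fell 1.98-fold (-0.99 ± 0.16 SE, adjusted p = 0.010). Intact fish had 5.79 to 6.27 for vegfab, so that all 3 arrays of 2 dpi stood above that range, and at 3 dpi replicates 1, 3 and 4 stood below it and replicate 2 within it.

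The G-protein modulator gpsm1a fell 2.08-fold (adjusted p = 0.025), from 8.02, 8.01 and 7.65 to 7.16, 7.49, 6.27 and 6.43. The membrane protein gene mmd fell 2.01-fold (adjusted p = 0.046), yet its arrays were split, with 9.60, 9.67 and 9.54 followed by 8.24, 9.45, 7.37 and 9.31: replicates 1 and 3 carried most of the difference. The splicing factor srsf6b (1.94-fold), the clustered protocadherin pcdh2g16 (1.88-fold), bcl7ba, a subunit of chromatin remodelling complexes (-0.85 on the log2 scale), and the uncharacterized si:ch211-71n6.4, si:dkey-122a22.2 and si:dkey-22o12.2 also fell, with adjusted p from 0.016 to 0.048. Clustered protocadherins share exons, and cross-hybridization was not tested.

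**Figure D4:**
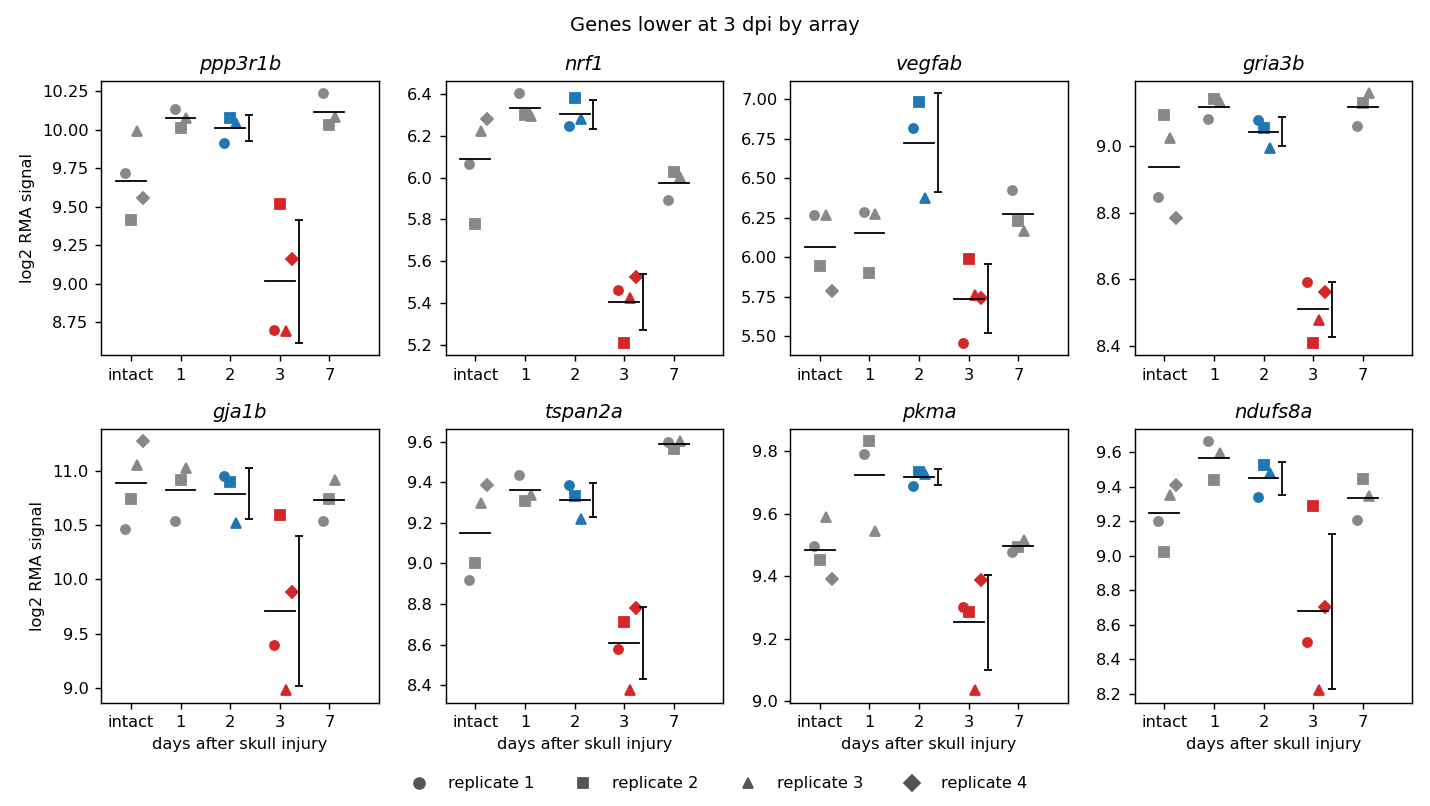
Log2 RMA signal (vertical axis) of 8 genes called lower at 3 dpi, in intact fish and at 1, 2, 3 and 7 days after skull injury, 1 point per sample, with the marker giving the replicate number; horizontal lines are group means and the bars beside 2 and 3 dpi are 1 SD. In every gene but gja1b the 4 samples of 3 dpi lie below the 3 samples of 2 dpi, and replicate 2 of gja1b reaches into the earlier range.

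The glycolysis and respiratory chain lists held the most calls among the lists, but calls of lower probe sets depended on signal. At a mean log2 level of 5 to 6, 47 of 7742 probe sets were called lower, and at 8 to 9, 133 of 4330. The glycolysis list averaged 7.997 to 8.345 in the 7 arrays. The shares of all named genes given below were not matched for signal. In glycolysis 5 of 32 genes fell and 0 rose, the median difference was -0.24, and 15 were lower and 0 higher at an unadjusted p under 0.05. Of all named genes 1.66% fell and 0.165% rose by adjusted p, and 15.4% were lower and 3.36% higher at an unadjusted p under 0.05. The 5 were the glucose transporter slc2a3a, pfkpa (phosphofructokinase), pgam1a (phosphoglycerate mutase), eno1a (enolase) and pkma (pyruvate kinase), of which pfkpa was named after its value was seen. For pkma the values were 9.69, 9.73 and 9.73, then 9.30, 9.29, 9.04 and 9.39, a 1.38-fold fall (-0.46 ± 0.11 SE, adjusted p = 0.033). For eno1a they were 9.67, 9.62 and 9.46, then 9.34, 9.20, 8.58 and 8.80, a 1.52-fold fall (-0.60 ± 0.14 SE, adjusted p = 0.035). Replicates 1, 2, 3 and 4 had 24, 20, 22 and 23 of the 32 genes below all 2 dpi values, against 51.3%, 31.8%, 50.1% and 40.9% of all named genes. After quantile or cyclic loess normalization 0 of the 5 calls were left, the quantile median was -0.18, and without replicate 1, 3 or 4 of 3 dpi, or without replicate 1 or 2 of 2 dpi, 0 were called. Without replicate 3 of 2 dpi there were 2.

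Of 100 respiratory chain genes 6 fell and 0 rose, but the list as a whole had a median of -0.02 and 48 positive members. The list averaged 9.28 to 9.47 in the 7 arrays. Of all probe sets with a mean log2 level of 9 to 10, 113 of 2445 were called lower. At an unadjusted p under 0.05, 18 were lower and 3 higher, shares near the 15.4% and 3.36% of all named genes, of which 1.66% fell by adjusted p. The calls were ndufs3, ndufs8a, ndufa4b and ndufa4a, named after complex I, atp5mc3b of the ATP synthase and uqcrc2b of complex III, of which ndufa4a and uqcrc2b were named after their values were seen. The sign of the list's median depended on scaling, with 0.06 after quantile normalization and 0.09 after cyclic loess. For ndufs8a the values were 9.34, 9.53 and 9.48, then 8.50, 9.29, 8.22 and 8.70, a 1.71-fold fall (-0.77 ± 0.16 SE, adjusted p = 0.023). The arrays disagreed on this list. Above all 2 dpi values were 41, 17, 43 and 12 of the 100 members in replicates 1, 2, 3 and 4. Of all 13951 named genes, 2809, 4146, 3063 and 3618 were above in the same replicates. Below all 2 dpi values were 36, 50, 41 and 64 members, against 51.3%, 31.8%, 50.1% and 40.9% of all named genes. After quantile normalization 4 of the list were called, after cyclic loess 2, without replicate 2 of 3 dpi 13, and without replicate 1, 3 or 4 of 3 dpi or replicate 2 of 2 dpi 0. Without replicate 1 or 3 of 2 dpi there were 2 and 3.

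Glial and neural lists had at most 1 call each, where 1.66% of all named genes fell. Among 30 ependymoglia genes 1 fell: gja1b, encoding connexin 43, the gap junction protein of astroglia. It had 10.95, 10.89 and 10.52, then 9.40, 10.59, 8.98 and 9.88, a 2.11-fold fall (-1.08 ± 0.23 SE, adjusted p = 0.025), with replicate 2 inside the 2 dpi range. The brain aromatase gene cyp19a1b had 11.88, 11.86 and 11.88, then 11.52, 11.36, 11.18 and 11.53, values that did not overlap (-0.48 ± 0.13 SE, adjusted p = 0.057). For the prostaglandin D synthase gene ptgdsb.1 the difference was -1.06 ± 0.33 (SE, adjusted p = 0.083). The median of the ependymoglia list was -0.21, and 7 members were lower and 1 higher at an unadjusted p under 0.05, beside 15.4% and 3.36% of all named genes.

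In the myelin list 1 of 14 genes fell, tspan2a, a tetraspanin of oligodendrocytes, from 9.39, 9.33 and 9.22 to 8.58, 8.71, 8.38 and 8.78 (-0.70 ± 0.13 SE, adjusted p = 0.014). The myelin basic protein gene mbpa had 9.88, 9.86 and 9.49, then 8.66, 9.16, 8.63 and 9.46 (-0.76 ± 0.21 SE, adjusted p = 0.064), groups that just did not overlap. Of 12 oligodendrocyte progenitor genes 0 were called by adjusted p and 0 at an unadjusted p under 0.05, with a median of -0.06. The AMPA receptor subunit gria3b was the 1 of 36 glutamate receptor genes that fell, from 9.08, 9.06 and 8.99 to 8.59, 8.41, 8.48 and 8.56 (-0.53 ± 0.11 SE, adjusted p = 0.023).

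Of 29 synaptic vesicle genes 0 were called, and 12 were lower and 1 higher at an unadjusted p under 0.05. The vesicle protein gene sypa had 10.18, 10.22 and 10.11, then 9.73, 9.69, 9.77 and 9.85 (-0.41 ± 0.11 SE, adjusted p = 0.053), groups apart by more than their spread. Of 131 GABA receptor and ion channel genes 0 were called, with 28 lower and 2 higher at an unadjusted p under 0.05. Among those higher was the potassium channel gene kcnq3, with 6.82, 6.86 and 7.09, then 7.26, 7.11, 7.93 and 7.98 (0.65 ± 0.17 SE, adjusted p = 0.057). Of 35 neuron genes 0 were called, with 9 lower and 1 higher at an unadjusted p under 0.05, and stmn2a differed by -0.35 and tbr1b by -0.40. Of 70 cytosolic ribosomal protein genes 0 were called, with 18 lower and 1 higher at an unadjusted p under 0.05 and a median of -0.12, which was -0.06 after quantile normalization. These shares stand beside 15.4% lower and 3.36% higher among all named genes.

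Single genes fell in 3 further lists, where 1.66% of all named genes fell. The metalloproteinase inhibitor timp2b was the 1 of 52 matrix genes, from 10.24, 9.96 and 9.94 to 9.16, 9.76, 8.77 and 9.33 (-0.79 ± 0.19 SE, adjusted p = 0.038). Its skull 1 dpi arrays had 10.03 to 10.33 and its skull 7 dpi arrays 8.86 to 9.35. The cryptochrome gene cry4 was the 1 of 39 circadian clock genes, from 6.44, 6.32 and 6.41 to 5.25, 5.67, 6.14 and 5.79 (-0.68 ± 0.16 SE, adjusted p = 0.039), with replicate 3 the highest of the later arrays. The glutathione peroxidase gene gpx4b was the 1 of 24 oxidative stress and metal response genes, from 10.07, 10.01 and 10.01 to 9.73, 9.60, 9.50 and 9.56 (-0.43 ± 0.10 SE, adjusted p = 0.028). None of 38 cell cycle genes, 24 cholesterol biosynthesis genes, 34 activity-induced early genes or 29 Notch pathway genes was called by adjusted p (0). At an unadjusted p under 0.05 there were 2, 3, 2 and 2, all lower but 1 of the cholesterol genes. At that unadjusted p 15.4% of all named genes were lower and 3.36% higher.

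**Figure D5:**
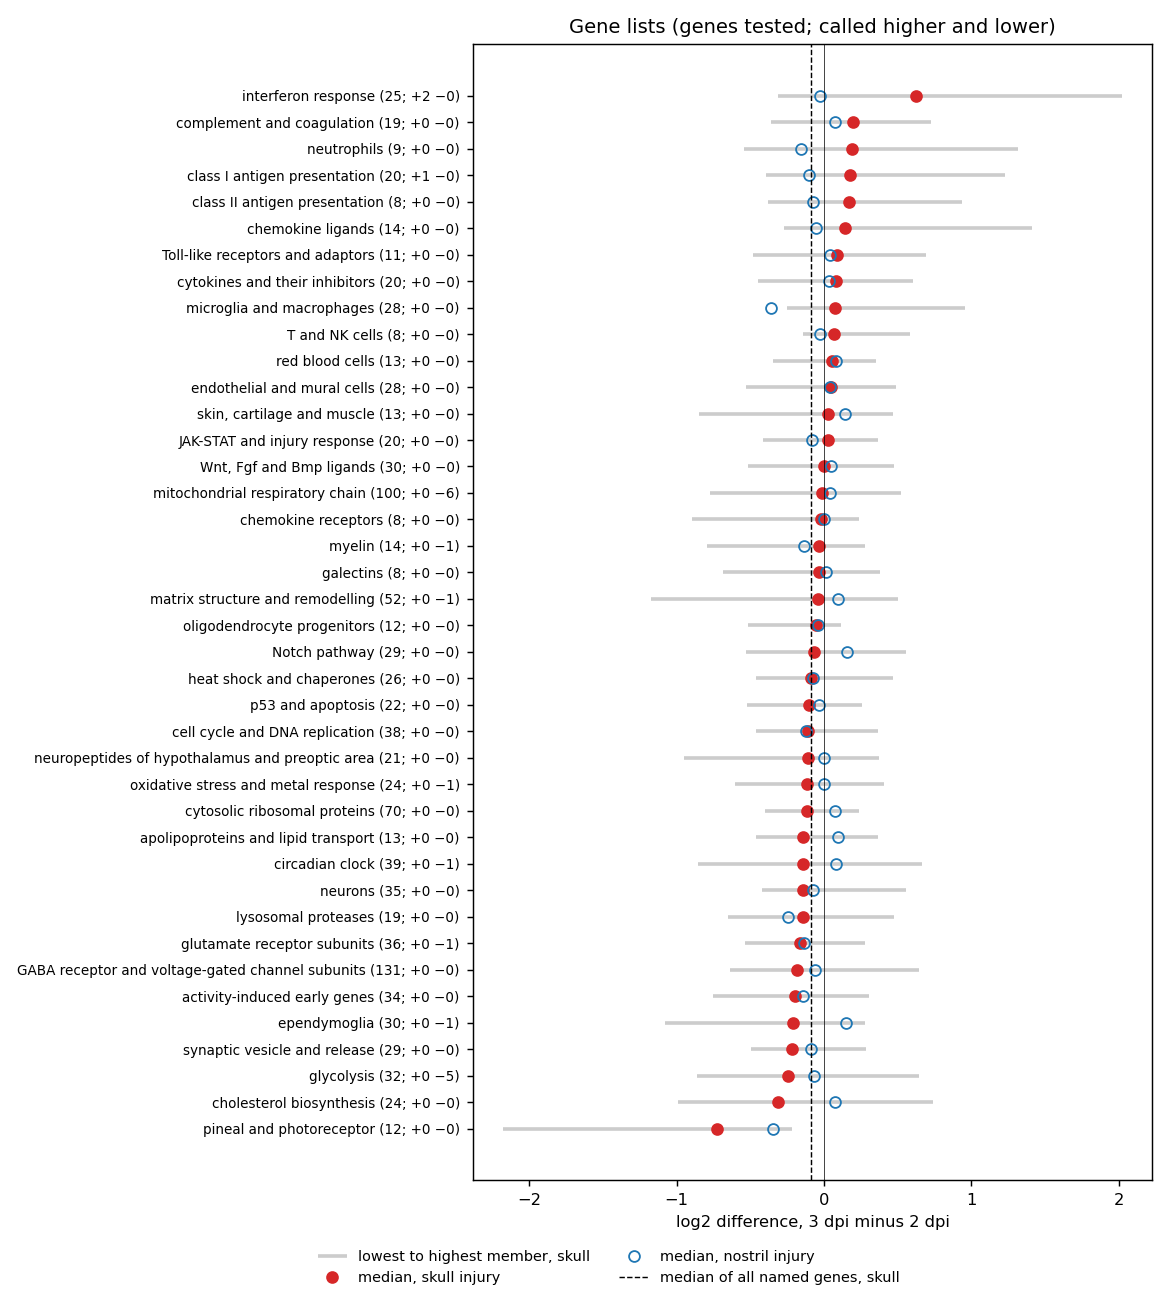
Median log2 difference between 3 and 2 dpi (horizontal axis) of each gene list with 8 or more tested genes, filled for skull and open for nostril injury; grey bars span the lowest and highest member in skull injury, the dashed line is the median of all named genes in skull injury, and the numbers beside each name are the genes tested and those called higher and lower. The interferon response has the highest skull median, 0.62, with -0.03 in nostril injury. Its 25 genes were admitted by their signal in the skull groups, 7 of them at skull 3 dpi only.

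The lowest list median, -0.73 over 12 pineal and photoreceptor genes, rested on 1 library: without skull 2 dpi replicate 3 it was -0.05, over the 6 genes then tested. The other 6 had passed the signal floor at 2 dpi only. Their mean level was 4.35, 4.25 and 7.15 in the 2 dpi arrays and 4.18 to 4.47 in the 3 dpi arrays. The rod transducin gene gngt1 had 3.304, 3.14 and 9.89 at 2 dpi and 3.06 to 3.52 at 3 dpi, and gnat1 had 3.25, 3.31 and 7.86, then 3.13 to 3.65. Replicate 3 of skull 2 dpi alone among the 7 arrays was high for both genes and for the list. None of the 12 genes was called (0 by adjusted p, 1 at an unadjusted p under 0.05). Outside the contrast the list was also high in nostril 1 dpi replicate 3 (7.47) and nostril 2 dpi replicate 2 (6.43). The nostril 2 dpi array entered the nostril step and the test of the difference between injuries.

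After nostril injury the same step from 2 to 3 dpi called 0 of 38053 probe sets, with 2904 at an unadjusted p under 0.05 (7.63%). The difference between injuries in that step called 0 of 39422, with 4146 at an unadjusted p under 0.05 (10.5%) and a smallest adjusted p of 0.060, so that a difference between the injuries was not detectable for any single gene with these arrays. Without skull 3 dpi replicate 2 this test called 25, without skull 3 dpi replicate 3 it called 1, and without skull 2 dpi replicate 3 it called 2. For ifi44a8 the nostril difference was -0.26 and the skull change exceeded it by 1.79 on the log2 scale (adjusted p = 0.060). For mxc the nostril difference was -0.67 and the excess 2.69 (adjusted p = 0.33), and for irf7 they were 0.10 and 1.42 (adjusted p = 0.43). The lowered gene vegfab had a nostril difference of 0.04 and an excess of -1.03 (adjusted p = 0.17). Of these genes ifi44a8 and vegfab had been chosen by their skull difference. Of the 2 skull groups, ifi44a8 and mxc passed the signal floor at 3 dpi only. The same skull arrays enter the excess, so that these single-gene values give no support of their own. The interferon list had a median of -0.03 in nostril injury with 0 of its 25 genes at an unadjusted p under 0.05. Those 25 had been admitted by their signal in the skull groups, 7 of them at skull 3 dpi only, so that the filter favoured the skull side. No nostril value was taken over all 40 matched genes. In the 38397 probe sets 47% had a positive and 53% a negative nostril difference, and 62.5% of those called higher and 76.3% of those called lower in skull injury had the same sign there.

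The called probe sets were set beside intact fish and the other days, as a description with no test. Of the 160 called higher, the 2 dpi mean lay within the intact range in 61.9% (66.3% of all tested) and the 3 dpi mean above it in 152. Of the 616 called lower, the 2 dpi mean lay within the intact range in 51.8% and above it in 289, and the 3 dpi mean lay below the range in 550. Of all 38397 tested, the 2 dpi mean lay above the range in 6990. The 3 dpi mean lay above it in 7400 and below it in 10877. At 7 dpi the mean was nearer to the 2 dpi than to the 3 dpi mean for 90% of those higher and 96.8% of those lower, against 68.2% of all tested. The 3 dpi arrays set both the call and these distances, so the shares describe the called set only.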

How the data were processed

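Telencephalon RNA had been amplified, labelled with biotin and hybridized to Affymetrix Zebrafish Gene 1.0 ST arrays. The authors deposited log2 values for 75212 probe sets in a series table, made by RMA in Affymetrix Expression Console 1.3 per the labels. All 30 value columns matched a sample (0 did not), and repeat arrays of 1 intact sample were averaged. Symbols came from the platform annotation: 20806 probe sets had 1 symbol, 855 several and 53551 none.

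With R 4.3.3 and limma 3.58.1, group means were fitted over the 25 injury arrays of 8 groups with a weight per group (arrayWeights) and moderated variances, and p-values were adjusted by Benjamini-Hochberg over all probe sets with a linear mean above 20 in either group compared. The number of arrays limits the precision. Genes under that floor in 1 group are given without a fold. A gene was given by its probe set with the highest mean over the 7 arrays. Text genes were the 12 highest and 12 lowest called genes with groups apart, up to 4 per list with the smallest p, and a set of interferon and chemokine genes; others are stated as named after their values were seen. Not every gene under this rule is reported here. cxcl11.5, cxcl11.6, cxcl13 and irf2 had no probe set matched by name and are not analysed here, and cxcl11.1, tlr2 and cxcr3.1 were below the signal floor. The members and lists were chosen with earlier results of these data known. The pipeline was tested on simulated data. Levels are log2 RMA signals and are not comparable between genes. Alternatives are given in the closing section.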

Additional observations from a re-analysis of the deposited data

Results flagged for a closer look

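In the skull 3 dpi group, 79 named genes and 42 list levels were checked for 1 sample far from the other 3, that is, a gap to the nearest sample above 0.829 of the whole range. This happened for 7 of them, and chance gives about 1 in 20. For 3 list levels the far sample was replicate 3: the interferon response list at 5.00 (the gap was 0.959 of the range), the chemokine receptor list at 5.26 and the ependymoglia list at 8.32, all lower than the other 3 samples. Replicate 2 was far for otud4, at 6.63 below the others, and for cxcr3.2, at 5.38 above them. Replicate 1 was far for si:ch211-71n6.4, at 6.03 above the others, and for asmt2, a melatonin synthesis enzyme gene, at 5.66. No gene passed the test of the difference between skull and nostril injury.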

How the results depend on the processing

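Beside the 776 calls by adjusted p, fits on the 7 arrays alone called 0, with 1 spread or with a weight per group (0 in both). The count was 16 on the 13 skull arrays, 56 with a replicate block, 306 without the filter on low signal and 507 after cyclic loess. It was 1363 with a trended and robust prior and 1656 without weights. Over all 9 groups with intact, also without weights, it was 1994. Leaving out 1 array gave 16 to 2601. The counts stayed within 1.5 times of 776 with a weight per array (855), with centred arrays (864), after quantile normalization (527) and with a linear mean above 50 (1154). The 1500 probe sets past the criteria of the study became 491 with a fold change above 2, 1275 to 2474 when 1 array was left out, and 1050 to 1838 under the other settings. The difference between injuries had 0 calls, and 0 to 25 when 1 array was left out.

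Over the 42 lists, 20 members were called, and 20 with the mean of all probe sets of a gene. Of all 13951 named genes, 0.165% were called higher and 1.66% lower. The share over the distinct members of the lists was not taken, so that the 20 show no excess over all named genes. The normalizations, the fit without weights and the left-out arrays were added for the lists after seeing the data. The counts were 0 on the 7 arrays, 12 after quantile normalization, 9 after cyclic loess, 47 without weights and 0 to 65 when 1 array was left out. For the interferon response the 2 calls became 0 on the 7 arrays and 0 to 5 when 1 array was left out, and its median of 0.62 ranged from 0.39 to 0.93. For glycolysis the 5 calls became 0 on the 7 arrays, 0 after quantile normalization, 0 after cyclic loess and 0 to 7 when 1 array was left out. For the respiratory chain the 6 calls became 0 on the 7 arrays, 2 after cyclic loess, 11 without weights and 0 to 13 when 1 array was left out. Of the 79 named genes, cxcr3.2 alone changed sign: -0.00562 with centred arrays, -0.07 without skull 2 dpi replicate 3 and -0.12 without skull 3 dpi replicate 2, with a range of -0.12 to 0.0803 when 1 array was left out. The cause of these shifts was not tested.

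Replicate numbers showed no sign of pairing the samples over all probe sets. Deviations of same-numbered arrays correlated at -0.02, -0.02 and 0.03, and those of differently numbered arrays at -0.06 to 0.08. A pairing limited to some genes was not tested. With the replicate block 56 probe sets were called, 1808 passed the criteria of the study, and 0 differed between injuries.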

Other observations

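Gene families that recurred among the lowered genes were counted after the values were seen, by symbol, and carry no test. Of all named genes 1.66% fell. Of 20 V-ATPase subunit genes 4 fell (atp6v0b, atp6v0a1b, atp6v1aa and atp6v0d1) with a median of -0.22, and after quantile normalization 1 was called with a median of -0.14. Of 17 SR splicing factor genes 5 fell (srsf4, srsf5a, srsf5b, srsf6b and srsf7a) with a median of -0.39, and 3 after quantile normalization (median -0.33). Of 13 tubulin genes 4 fell, with a median of -0.47 and 2 called after quantile normalization. All 5 calcineurin subunit genes had a negative difference, and 3 fell. Of 42 proteasome subunit genes 1 fell, with a median of -0.04 that turned to 0.02 after quantile normalization.

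The largest negative difference among named genes at an unadjusted p under 0.05, picked after its value was seen, was ankrd37, with 7.19, 7.41 and 4.70 at skull 2 dpi and 4.37, 4.77, 4.304 and 4.09 at 3 dpi (-2.05 ± 0.54 SE, adjusted p = 0.053). Replicates 1 and 2 of 2 dpi were high, and replicate 3 lay within the intact range of 4.14 to 5.44. The collagen hydroxylase gene p4ha1b also had its lowest 2 dpi value in replicate 3, with 6.73, 6.62 and 5.58 at 2 dpi and 5.59, 5.39, 4.91 and 4.67 at 3 dpi (-1.17 ± 0.39 SE, adjusted p = 0.11).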
